A study of Mus musculus with 12 samples.

Results

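The integrated stress response genes described here are 10 transcripts of mouse liver: Atf4, Atf5, Atf3, Ddit3, Trib3, Asns, Psat1, Chac1, Fgf21 and Hspa5. The set was chosen with earlier results of these data known. Each gene was read from the Affymetrix transcript cluster annotated to that gene and no other, so they are 10 of the 19938 genes that have such a cluster. Each of the 10 had exactly 1 such cluster. Whole liver of mice aged 2 weeks was hybridised to mouse Gene 1.0 ST arrays, with 3 arrays, lettered A to C, for each of 4 genotypes. Stat3Fl/Fl liver carries loxP-flanked Stat3 alleles and intact Mdr2, and Stat3Δhc liver has the floxed Stat3 deleted and intact Mdr2. Stat3Fl/FlMdr2-/- liver keeps Stat3 but lacks Mdr2. Stat3Δhc Mdr2-/- liver has the floxed Stat3 deleted and lacks Mdr2, so all 4 genotypes share the floxed Stat3 background. No treatment is given in the labels, which name neither the Cre driver nor the cells in which it acts, and do not say whether each array holds the liver of a separate animal. The p-values therefore measure the spread between arrays, which may be partly technical. Because whole liver was used, fewer cells of a type and less RNA per cell cannot be told apart.

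The integrated stress response is a switch in protein synthesis. Kinases that sense unfolded protein in the endoplasmic reticulum, lack of amino acids, haem shortage or double-stranded RNA phosphorylate the initiation factor eIF2, which slows general translation and favours translation of Atf4 mRNA. The ATF4 protein then drives transcription of further transcription factors (Atf5, Atf3, and Ddit3, which encodes CHOP), of the pseudokinase Trib3, of amino acid enzymes such as Asns and Psat1, of the glutathione-degrading enzyme Chac1, and in liver of the hormone Fgf21. Hspa5 encodes BiP, the main chaperone of the endoplasmic reticulum, and is controlled mostly by the ATF6 branch of the unfolded protein response. Since ATF4 is regulated largely in translation, its mRNA level is an incomplete measure of its activity. Mdr2, encoded by Abcb4, exports phospholipid into bile, and mice without it are a model of sclerosing cholangitis.

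The promoters of the 10 genes were searched for sites through which this response is known to act. RefSeq windows on mouse build GRCm38.p6, from 250 bases before to 50 bases after the start, were found for 10 of 10 genes (12 windows, since Atf5 and Psat1 have more than 1). The C/EBP-ATF composite element, TGATGNAA on either strand, was present in 3.97% of 32851 promoter windows of the same length, and it was present in the windows of Atf3, Trib3, Asns, Chac1 and Fgf21. The endoplasmic reticulum stress element, searched in its textbook form of a CCAAT box and a CCACG box at fixed spacing, was present in 0.119% of windows, and among the 10 genes it was found for Hspa5. The cyclic AMP response element, TGACGTCA, was present in 1.79% of windows and was not matched in any of the 12. No window held matches to more than 1 of these motifs. A match is a description of letters and not of binding. The 30-base stretches around the 6 matches, written 5′ to 3′ on the strand of the gene with the matched letters in capitals, are shown because 5 of the 10 genes hold the same element and because Atf3 and Trib3 changed in the comparisons below.
Atf3, chr1:191183425-191183454, minus strand, match from -110 to -103: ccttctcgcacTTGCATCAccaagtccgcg
Trib3, chr2:152344028-152344057, minus strand, match from 15 to 22 after the start: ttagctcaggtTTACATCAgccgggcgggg
Asns, chr6:7693214-7693243, minus strand, match from -23 to -16: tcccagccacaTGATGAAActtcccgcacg
Chac1, chr2:119351038-119351067, plus strand, match from -193 to -186: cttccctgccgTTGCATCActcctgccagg
Fgf21, chr7:45615611-45615640, minus strand, match from -139 to -132: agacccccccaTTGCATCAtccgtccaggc
Hspa5, chr2:34772020-34772049, plus strand, match from -65 to -47: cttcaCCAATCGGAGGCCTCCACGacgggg
Atf3, Chac1 and Fgf21 hold the same 8 letters, TTGCATCA, which is the composite element read on the opposite strand. Asns holds it in the forward direction as TGATGAAA, and Trib3 holds TTACATCA just downstream of its start.

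The signals of both targeted genes followed the titles, by which the arrays were assigned to genotypes. On the log2 signal scale Stat3 was at least 9.19 on every array of floxed liver and at most 8.12 on every array of Stat3-deleted liver. Abcb4 averaged 10.10 and 10.14 in the genotypes with Mdr2 and did not exceed 9.36 on any Mdr2-/- array. The source names of the arrays exchange the names of the Mdr2-/- genotypes. Hepatocyte markers averaged 12.29 to 12.75 on the arrays. Of 11 tested, 1 rose with Stat3 deletion in each Mdr2 background, 2 fell with Mdr2 loss in floxed liver, and 1 rose and 3 fell with Mdr2 loss in Stat3-deleted liver. The mean of 15 exocrine pancreas markers ranged from 5.61 to 9.49 on the arrays with Mdr2, being high on arrays B and C of both genotypes, and from 5.36 to 5.69 on the arrays without it. The mean of 22 skeletal muscle markers was 8.37 to 9.02 with Mdr2 and 5.57 to 5.91 without, and 22 of 22 fell with Mdr2 loss in both Stat3 backgrounds. With Mdr2 loss in Stat3-deleted liver, 1 of 12 macrophage, 4 of 9 stellate cell and 2 of 5 lymphocyte markers rose, and 3 of 5 erythroid, 2 of 5 cholangiocyte, 4 of 9 stellate cell and 4 of 8 endothelial markers fell. In floxed liver 1 of 9 stellate cell and 1 of 8 endothelial markers rose, and 2 of 5 erythroid, 1 of 12 macrophage and 2 of 9 stellate cell markers fell. Des is in both the stellate cell and the skeletal muscle list, and is among the stellate cell markers that fell in both Mdr2 comparisons. With Stat3 deletion on the knockout, 2 of 12 macrophage, 2 of 9 stellate cell, 1 of 8 endothelial and 1 of 5 cholangiocyte markers fell, and with Mdr2 intact 1 of 9 stellate cell and 1 of 5 cholangiocyte markers fell. Over all tested genes, 6.90% rose and 10.5% fell with Mdr2 loss in Stat3-deleted liver, and 7.12% and 5.65% in floxed liver. With Stat3 deletion 1.87% rose and 3.90% fell on the knockout, and 1.51% and 1.07% with Mdr2 intact. High Xist with low Y-linked transcripts marked the 3 Stat3Fl/FlMdr2-/- arrays and array A of Stat3Δhc Mdr2-/- liver. The part of these transcripts in the changes reported below was tested only as far as the fits with a pancreas or an Xist covariate go.

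Few of the 10 genes passed the test in any one comparison. Psat1 was lower in Stat3-deleted liver with and without Mdr2, and Atf3 was about 2.2-fold higher without Mdr2 in both Stat3 backgrounds. Trib3 rose and Atf5 fell with Mdr2 loss in Stat3-deleted liver. Ddit3, the transcript of CHOP, and Atf4 itself passed in none of the comparisons, nor did Asns, Chac1, Fgf21 or Hspa5. A gene passed when its limma p-value, adjusted by the Benjamini-Hochberg method over all 13977 genes tested, was under 0.05.

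For Stat3 deletion with Mdr2 intact, 1 of 10 genes passed, where 2.58% of all tested genes did, and the median log2 change of the 10 was -0.11 against -0.01 over all genes. For Stat3 deletion on the Mdr2 knockout, 1 of 10 passed against 5.77% of all genes, with a median of -0.14 against -0.03. For Mdr2 loss in floxed liver, 1 of 10 passed against 12.8% of all genes, with a median of 0.19 against 0.00. For Mdr2 loss in Stat3-deleted liver, 3 of 10 passed against 17.4% of all genes, with a median of 0.20 against -0.02. By sign alone, 7 of 10 changes were negative for Stat3 deletion with Mdr2 intact and 8 of 10 on the knockout, while 6 of 10 were positive for Mdr2 loss in floxed and 8 of 10 in Stat3-deleted liver. The mean log2 signal of the 10 genes was 7.46 to 7.62 on the arrays of Stat3Fl/Fl liver, 7.31 to 7.35 in Stat3Δhc liver, 7.72 to 7.87 in Stat3Fl/FlMdr2-/- liver and 7.56 to 7.62 in Stat3Δhc Mdr2-/- liver. These means did not overlap between the genotypes of any of the 4 comparisons and are given as a description, with no test and no share over all genes. They include Atf3, whose change of 1.15 was the largest of the 10 in both Mdr2 comparisons, and their separation there can rest on that 1 gene. Each of the first 3 counts is a single gene, and that for Mdr2 loss in floxed liver is near the share over all genes. The first pair of comparisons shares no arrays with each other, nor does the second pair, but each Stat3 comparison shares arrays with each Mdr2 comparison.

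**Figure D1:**
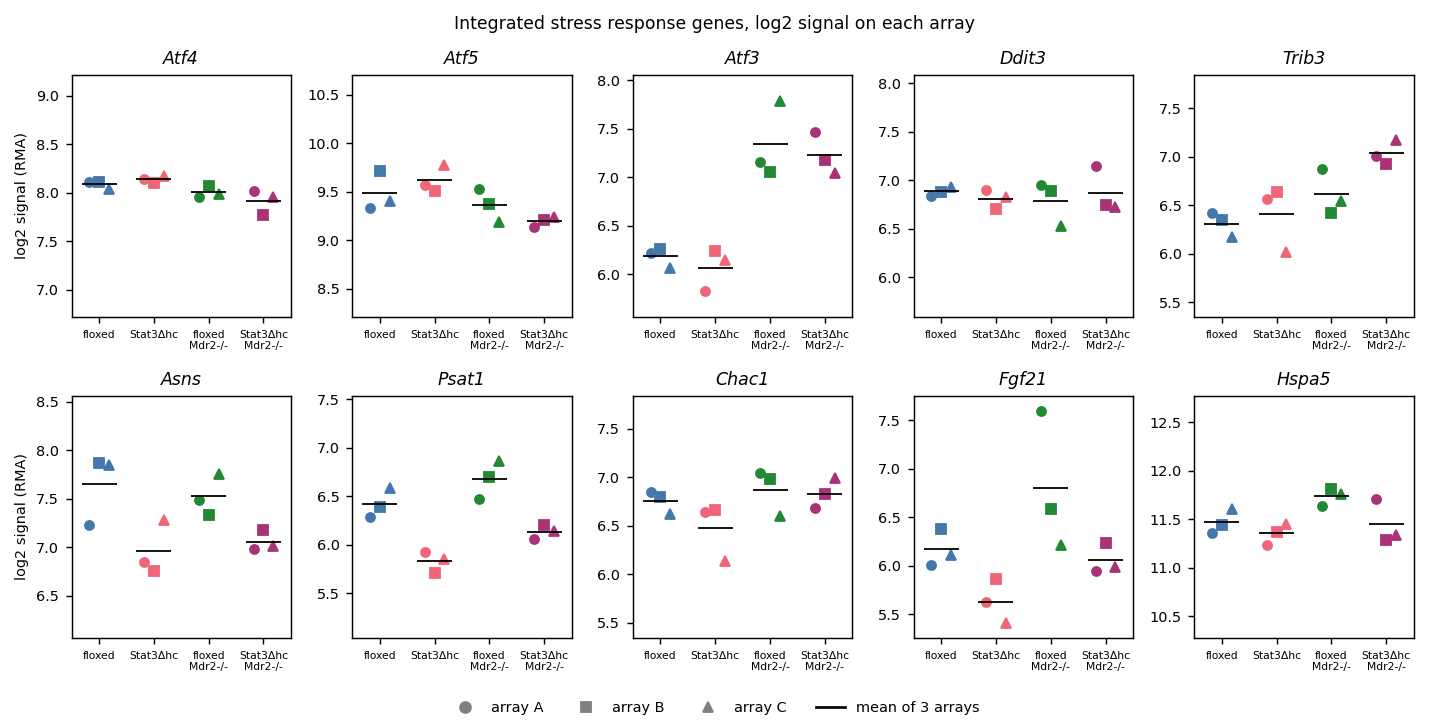
Log2 signal of each of the 10 genes on each of the 12 arrays, by genotype, with a bar at the mean of 3 arrays and one symbol per array letter; each panel is centred on its gene and spans 2.5 log2 units. Atf3 is above 7.0 on the 6 Mdr2-/- arrays and under 6.3 on the others, and Psat1 is lower in Stat3Δhc than in floxed liver within each Mdr2 background.

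Atf4 mRNA, which encodes the central transcription factor of the response, differed little between genotypes. On arrays A, B and C its log2 signal was 8.11, 8.11 and 8.04 in Stat3Fl/Fl liver, 8.14, 8.10 and 8.17 in Stat3Δhc liver, 7.96, 8.07 and 7.99 in Stat3Fl/FlMdr2-/- liver, and 8.02, 7.77 and 7.96 in Stat3Δhc Mdr2-/- liver. The ranges of neighbouring genotypes overlapped in the order of their means, which was Stat3Δhc, Stat3Fl/Fl, Stat3Fl/FlMdr2-/- and Stat3Δhc Mdr2-/-. The change of greatest size, for Mdr2 loss in Stat3-deleted liver, was -0.22 (95% interval -0.40 to -0.04, adjusted p = 0.0785) and did not pass, although those 2 groups did not overlap. Stat3 deletion gave 0.05 (-0.12 to 0.23) with Mdr2 and -0.09 (-0.27 to 0.09) without it. Leaving out array A of Stat3Δhc Mdr2-/- liver, the one array of that genotype with the Xist pattern, moved the Mdr2 change of Atf4 in Stat3-deleted liver to -0.27 (adjusted p = 0.0478).

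Atf5 encodes an ATF4-induced transcription factor that is abundant in liver. Its log2 signal on arrays A to C was 9.33, 9.72 and 9.41 in Stat3Fl/Fl liver, 9.57, 9.51 and 9.78 in Stat3Δhc liver, 9.53, 9.38 and 9.19 in Stat3Fl/FlMdr2-/- liver, and 9.14, 9.21 and 9.24 in Stat3Δhc Mdr2-/- liver. The 3 arrays of Stat3Δhc Mdr2-/- liver were below every array of Stat3Δhc liver (means 9.20 ± 0.06 and 9.62 ± 0.14, SD, n = 3). Atf5 thus fell 1.34-fold with Mdr2 loss in Stat3-deleted liver (log2 change -0.43, SE 0.12, adjusted p = 0.0279), and in floxed liver the change was -0.12 (-0.38 to 0.14). The fall was not stable. It missed the threshold without array C of Stat3Δhc liver (-0.35, adjusted p = 0.122), the array with the highest pancreas mean of 9.49 and the highest Atf5 level. It also missed with a pancreas covariate (-0.24, adjusted p = 0.296), with the array letter as a replicate block (adjusted p = 0.0522) and with cyclic loess normalisation (-0.34, adjusted p = 0.0832). The fall missed too without array A of Stat3Δhc liver (adjusted p = 0.0619) or any one array of Stat3Δhc Mdr2-/- liver (adjusted p = 0.0519 to 0.0607). The Xist covariate (-0.40, adjusted p = 0.0607) is in this comparison the same fit as leaving out array A of Stat3Δhc Mdr2-/- liver.

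Atf3, a stress-induced repressor and activator that is also an immediate early gene, gave the clearest difference. Its log2 signal was 6.22, 6.26 and 6.07 on arrays A, B and C of Stat3Fl/Fl liver and 5.83, 6.24 and 6.15 on those of Stat3Δhc liver. Without Mdr2 it was 7.16, 7.06 and 7.79 in Stat3Fl/FlMdr2-/- liver and 7.47, 7.18 and 7.04 in Stat3Δhc Mdr2-/- liver. Every array without Mdr2 lay above every array with it, and array C of Stat3Fl/FlMdr2-/- liver was the highest of the 12. The level was above the 60th percentile of the array on 6 of 12 arrays, which were the 6 without Mdr2.

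With Mdr2 loss, Atf3 rose 2.22-fold in floxed liver (log2 change 1.15, SE 0.18, adjusted p = 0.00125) and 2.23-fold in Stat3-deleted liver (1.15, SE 0.18, adjusted p = 0.00105). The changes were alike in size, with a difference of 0.00 between them (95% interval -0.54 to 0.54). Stat3 deletion itself gave -0.11 (-0.50 to 0.27) with Mdr2 and -0.11 (-0.49 to 0.27) without it. Leaving out any 1 array kept Atf3 past the threshold in both comparisons, with changes of 0.92 to 1.29 in floxed liver and 1.03 to 1.25 in Stat3-deleted liver. All 3 Stat3Fl/FlMdr2-/- arrays and no Stat3Fl/Fl array carried the Xist pattern, and with that pattern as a covariate, estimated from array A of Stat3Δhc Mdr2-/- liver alone, the change of Atf3 in floxed liver was 0.79 (adjusted p = 0.352). Within the arrays of the Y-linked pattern, which in Stat3-deleted liver leaves out that array A, the change of Atf3 was 1.04 (adjusted p = 0.00497). Skeletal muscle markers separated the arrays with and without Mdr2 just as completely, and their part in the Atf3 change was not tested.

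Ddit3, whose product CHOP promotes cell death under prolonged stress, showed no separation. It stood at 6.84, 6.88 and 6.93 on arrays A to C of Stat3Fl/Fl liver, at 6.90, 6.70 and 6.83 in Stat3Δhc liver, at 6.95, 6.89 and 6.53 in Stat3Fl/FlMdr2-/- liver, and at 7.15, 6.74 and 6.72 in Stat3Δhc Mdr2-/- liver. The genotype means ran from 6.79 to 6.89 and the ranges overlapped in all 4 comparisons. The changes lay between -0.10 and 0.08 with standard errors of 0.13, and each of the 4 intervals included 0.

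Trib3 encodes a pseudokinase that is induced by ATF4 and CHOP and dampens their activity as well as insulin signalling through AKT. On arrays A, B and C it was 6.42, 6.35 and 6.17 in Stat3Fl/Fl liver, 6.57, 6.64 and 6.02 in Stat3Δhc liver, 6.88, 6.42 and 6.55 in Stat3Fl/FlMdr2-/- liver, and 7.01, 6.93 and 7.18 in Stat3Δhc Mdr2-/- liver. The 3 arrays of Stat3Δhc Mdr2-/- liver were the 3 highest of the 12, and the other genotypes overlapped. Trib3 rose 1.55-fold with Mdr2 loss in Stat3-deleted liver (log2 change 0.63, SE 0.16, adjusted p = 0.0183). In floxed liver the Mdr2 change was 0.30 (-0.04 to 0.65, adjusted p = 0.257), and Stat3 deletion on the knockout gave 0.42 (0.08 to 0.77, adjusted p = 0.116). The 2 Mdr2 changes of Trib3 were not shown to differ, since their difference was 0.33 (-0.16 to 0.81, adjusted p = 0.434). The lowest Trib3 value was on array C of Stat3Δhc liver, which had the highest pancreas mean. Without that array the rise was 0.44 (adjusted p = 0.0729), without array C of Stat3Δhc Mdr2-/- liver it was 0.56 (adjusted p = 0.0685), and with the pancreas covariate Trib3 gave 0.43 (adjusted p = 0.2).

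Psat1 encodes phosphoserine aminotransferase, an enzyme of serine synthesis from glycolytic intermediates. Its log2 signal was 6.28, 6.39 and 6.58 on arrays A, B and C of Stat3Fl/Fl liver and 5.92, 5.71 and 5.85 on those of Stat3Δhc liver. Without Mdr2 it was 6.47, 6.70 and 6.86 in Stat3Fl/FlMdr2-/- liver and 6.06, 6.20 and 6.14 in Stat3Δhc Mdr2-/- liver. The 6 Stat3Δhc arrays were all below the 6 floxed arrays, and the means fell in the order Stat3Fl/FlMdr2-/- (6.68), Stat3Fl/Fl (6.42), Stat3Δhc Mdr2-/- (6.13) and Stat3Δhc (5.83). In that order only the first pair of neighbours overlapped.

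With Stat3 deletion, Psat1 fell 1.5-fold in liver with Mdr2 (log2 change -0.59, SE 0.11, adjusted p = 0.0172) and 1.46-fold in liver without it (-0.55, SE 0.11, adjusted p = 0.0164). These comparisons use separate arrays, and their difference was 0.04 (95% interval -0.30 to 0.39). The pancreas mean was 5.36 to 5.69 on the 6 knockout arrays, and with Mdr2 it was 5.61, 8.41 and 7.03 on arrays A to C of Stat3Fl/Fl liver and 5.71, 7.60 and 9.49 on those of Stat3Δhc liver. Mdr2 loss gave Psat1 changes of 0.26 (0.02 to 0.50, adjusted p = 0.156) in floxed and 0.31 (0.06 to 0.55, adjusted p = 0.0767) in Stat3-deleted liver, which did not pass. The level was low, above the 60th percentile of the array on 2 of 12 arrays. The fall of Psat1 with Mdr2 missed the threshold on leaving out array B (-0.53, adjusted p = 0.0768) or C (-0.60, adjusted p = 0.0535) of Stat3Δhc liver, or array B (-0.60, adjusted p = 0.0722) or C (-0.51, adjusted p = 0.107) of Stat3Fl/Fl liver. That on the knockout missed it without array B (-0.53, adjusted p = 0.0579) or C (-0.45, adjusted p = 0.0614) of Stat3Fl/FlMdr2-/- liver, in a fit of the 2 groups alone (adjusted p = 0.0569), and with the Xist covariate (-0.62, adjusted p = 0.154).

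Asns, asparagine synthetase, is among the most responsive targets of ATF4 when amino acids are scarce. It measured 7.23, 7.87 and 7.85 on arrays A to C of Stat3Fl/Fl liver, 6.85, 6.76 and 7.28 in Stat3Δhc liver, 7.49, 7.33 and 7.76 in Stat3Fl/FlMdr2-/- liver, and 6.98, 7.18 and 7.01 in Stat3Δhc Mdr2-/- liver. Its means had the same sign of difference as those of Psat1 with Stat3 deletion, but the groups with Mdr2 overlapped, since array C of Stat3Δhc liver (7.28) was above array A of Stat3Fl/Fl liver (7.23). The changes were -0.69 (SE 0.18, 95% interval -1.08 to -0.30, adjusted p = 0.0622) with Mdr2 and -0.47 (SE 0.18, -0.86 to -0.08, adjusted p = 0.12) without it, and neither passed. Without array A of Stat3Fl/Fl liver, the first change of Asns was -0.90 (adjusted p = 0.00678), and with the pancreas covariate it was -0.78 (adjusted p = 0.0185). It also passed with trend and robust moderation (adjusted p = 0.0467) and with a 60th percentile filter (adjusted p = 0.049). Mdr2 loss left Asns at -0.12 (-0.51 to 0.27) in floxed and 0.10 (-0.29 to 0.49) in Stat3-deleted liver.

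Chac1, which cleaves glutathione and is induced through ATF4, passed in none of the comparisons. Its values on arrays A, B and C were 6.85, 6.79 and 6.62 in Stat3Fl/Fl liver, 6.64, 6.66 and 6.14 in Stat3Δhc liver, 7.04, 6.98 and 6.60 in Stat3Fl/FlMdr2-/- liver, and 6.68, 6.83 and 6.99 in Stat3Δhc Mdr2-/- liver. The arrays of Stat3Δhc liver were below those of Stat3Δhc Mdr2-/- liver, with 6.66 against 6.68 at the closest point, and array C of Stat3Δhc liver was lowest. That change was 0.35 (0.02 to 0.68, adjusted p = 0.125). For Stat3 deletion, Chac1 gave -0.27 (-0.60 to 0.06) with Mdr2 and -0.04 (-0.37 to 0.29) without it.

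Fgf21, the fasting and stress hormone of liver, had the largest standard error of the 10 genes (0.26). It was 6.01, 6.38 and 6.11 on arrays A to C of Stat3Fl/Fl liver, 5.63, 5.86 and 5.41 in Stat3Δhc liver, 7.60, 6.59 and 6.22 in Stat3Fl/FlMdr2-/- liver, and 5.95, 6.24 and 5.99 in Stat3Δhc Mdr2-/- liver. The 3 lowest values were those of Stat3Δhc liver, and array A of Stat3Fl/FlMdr2-/- liver stood alone at 7.60, the one array of 12 on which Fgf21 was above the 60th percentile. Stat3 deletion gave -0.53 (SE 0.26, -1.10 to 0.03, adjusted p = 0.337) with Mdr2 and -0.75 (SE 0.26, -1.31 to -0.18, adjusted p = 0.0979) without it. Mdr2 loss gave 0.64 (0.07 to 1.20, adjusted p = 0.139) in floxed liver and 0.43 (-0.14 to 0.99, adjusted p = 0.258) in Stat3-deleted liver. No change of Fgf21 passed with all arrays. Leaving out array C of Stat3Fl/FlMdr2-/- liver gave -1.03 (adjusted p = 0.0444) for Stat3 deletion and 0.93 (adjusted p = 0.0364) for Mdr2 loss, whereas without array A of that genotype, the one at 7.60, they were -0.35 and 0.24.

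Hspa5, the chaperone BiP, was measured at 11.36, 11.44 and 11.61 on arrays A to C of Stat3Fl/Fl liver, 11.24, 11.37 and 11.45 in Stat3Δhc liver, 11.64, 11.81 and 11.76 in Stat3Fl/FlMdr2-/- liver, and 11.71, 11.29 and 11.34 in Stat3Δhc Mdr2-/- liver. The floxed knockout was highest and lay above all 3 Stat3Fl/Fl arrays, while array A of Stat3Δhc Mdr2-/- liver (11.71) fell inside its range. The Mdr2 change in floxed liver was 0.27 (0.02 to 0.52, adjusted p = 0.163), and Stat3 deletion on the knockout gave -0.29 (-0.54 to -0.04, adjusted p = 0.135). Neither passed with all arrays. Without array A of Stat3Δhc Mdr2-/- liver, the one with the Xist pattern, the latter change of Hspa5 was -0.42 (adjusted p = 0.0311).

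**Figure D2:**
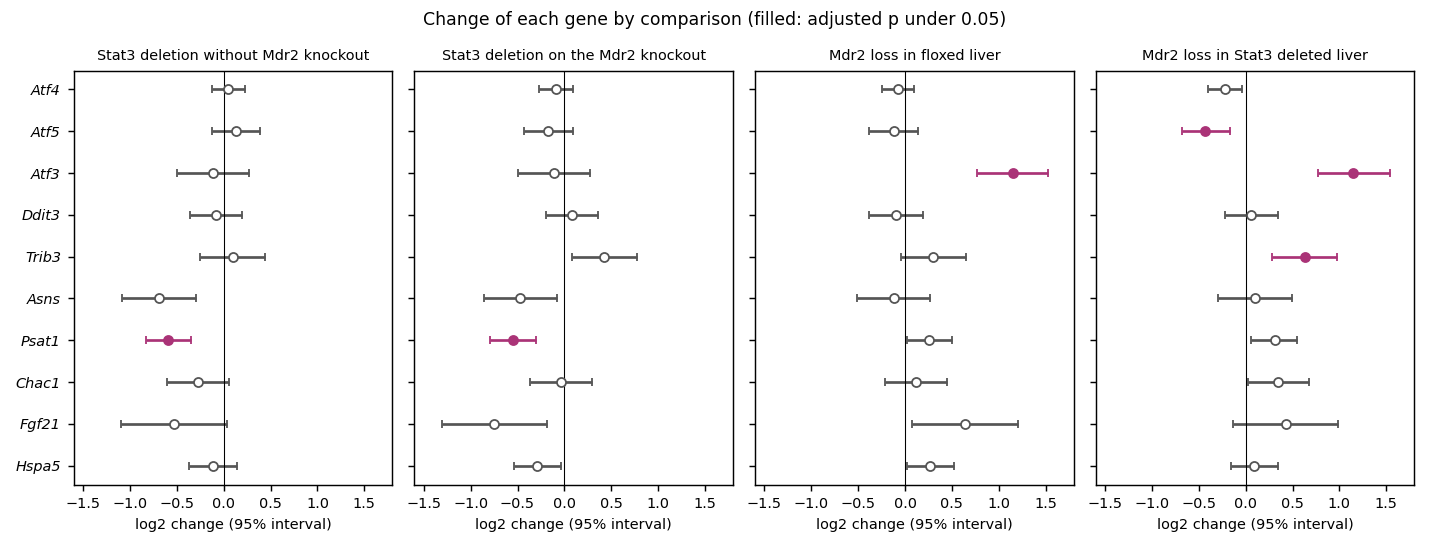
Log2 change of each of the 10 genes in the 4 comparisons, as points with 95% confidence intervals from the limma fit; filled points have an adjusted p under 0.05. Filled points are Psat1 in both Stat3 comparisons, Atf3 in both Mdr2 comparisons, and Atf5 and Trib3 for Mdr2 loss in Stat3-deleted liver.

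Before adjustment, 2 of 10 genes had a p under 0.05 for Stat3 deletion with Mdr2 intact, where 16.4% of all tested genes did, and 5 of 10 on the knockout, against 28.0%. For Mdr2 loss they were 4 of 10 in floxed liver, against 25.9%, and 6 of 10 in Stat3-deleted liver, against 34.7%. The same genes were compared by whether the arrays of the compared genotypes overlapped. With Mdr2 intact, 2 of 10 genes (Psat1 and Fgf21) had no overlap between floxed and Stat3Δhc liver, where 25.1% of all tested genes had none. On the knockout 3 of 10 (Psat1, Asns and Trib3) had none, against 28.6%. Mdr2 loss left 2 of 10 (Atf3 and Hspa5) without overlap in floxed liver, against 33.3%. In Stat3-deleted liver it left 7 of 10 (Atf3, Atf4, Atf5, Trib3, Chac1, Fgf21 and Psat1), against 37.2%.

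Whether the Stat3 change differed between liver with and without Mdr2 was tested as the difference of the changes, which is also the difference between the Mdr2 changes. Among the 10 genes 0 passed in limma and 0 had an unadjusted p under 0.05, where 0.0715% of all genes passed (0.0143% upward and 0.0572% downward) and 16.9% had such a p. The differences ran from -0.31 for Atf5 (-0.67 to 0.06, adjusted p = 0.348) to 0.33 for Trib3. For Asns the difference was 0.22 (-0.33 to 0.77), for Fgf21 -0.21 (-1.01 to 0.59), and for Hspa5 -0.18 (-0.53 to 0.18). The standard errors, from 0.12 for Atf4 to 0.37 for Fgf21, are larger than those of the single comparisons, so these intervals leave room for sizeable differences in the more variable genes.

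Among genes that act upstream on eIF2, Mdr2 loss in floxed liver raised Eif2ak3, which encodes the endoplasmic reticulum kinase PERK, by 0.87 (SE 0.13, adjusted p = 0.000903), from a mean of 7.72 to 8.59. The list held 18 genes for eIF2, its kinases, phosphatase, exchange factor and regulators, of which 17 were tested and Eif2s1 was not. Of these 17, 2 rose and 0 fell in that comparison, where 7.12% of all genes rose and 5.65% fell. The second was Eif2s3x (0.71, adjusted p = 0.0186), an X-linked subunit gene, and the 3 knockout arrays carried the Xist pattern. In Stat3-deleted liver Mdr2 loss raised 0 and lowered 4 of 17 (6.90% and 10.5% of all genes): Eif2s2, the beta subunit of eIF2 (-0.74, adjusted p = 0.00597), Ppp1r15b (-0.33), Eif2b1 (-0.30) and Eif2b5 (-0.30). On the knockout, Stat3 deletion lowered Eif2s2 (-0.61, adjusted p = 0.0365) and Eif2ak3 (-0.51, adjusted p = 0.0382), 2 of 17, and raised 0, against 3.90% and 1.87% of all genes. The list mean was 8.16 to 8.24 on the Stat3Fl/FlMdr2-/- arrays. In Stat3Δhc Mdr2-/- liver it was 8.14 on array A, the one with the Xist pattern, and 7.99 and 7.79 on arrays B and C. The part of that pattern in these falls was not tested. With Mdr2 intact, 0 of 17 passed (1.51% of all genes rose and 1.07% fell), and 0 had an unadjusted p under 0.05. The same shares over all genes are the background for each list that follows. For each of those lists, too, the part of the Xist pattern was not tested. That pattern was on the 3 Stat3Fl/FlMdr2-/- arrays and, in Stat3Δhc Mdr2-/- liver, on array A alone.

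The further ATF4 targets of amino acid synthesis and transport, 16 tested genes, also moved in both directions. With Mdr2 intact, Stat3 deletion raised Gpt2 (1.21, adjusted p = 0.0477) and Cbs (0.44, adjusted p = 0.0477), which make alanine and cystathionine, and lowered Mthfd2 (-0.39, adjusted p = 0.0275), a mitochondrial folate enzyme downstream of serine, so 2 of 16 rose and 1 fell where 1.51% and 1.07% of all genes did. On the knockout it lowered 3: the glycine transporter Slc6a9 (-0.87, adjusted p = 0.0058), the neutral amino acid transporter Slc1a4 (-0.86, adjusted p = 0.0172) and Aldh18a1 (-0.45, adjusted p = 0.0481), the first enzyme of proline synthesis, and raised 0, against 3.90% lower and 1.87% higher over all genes. Mdr2 loss in floxed liver raised 3 transport genes, Slc6a9 (1.02, adjusted p = 0.000753), Slc3a2 (0.48, adjusted p = 0.00443) and Slc38a2 (0.42, adjusted p = 0.0468), and lowered 0, against 7.12% and 5.65% of all genes. In Stat3-deleted liver it raised 0 and lowered 4, namely Slc1a4 (-0.91), Got1 (-0.71), Cbs (-0.49) and Shmt2 (-0.42), against 6.90% and 10.5% of all genes. The list medians were -0.10, -0.15, 0.04 and 0.11 in these 4 comparisons.

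The cytosolic aminoacyl-tRNA synthetases charge tRNAs, and some of them are also ATF4 targets. Of 20 listed, 17 were tested. On the knockout 17 of 17 had lower means in Stat3-deleted than in floxed liver, with a median of -0.22 against -0.03 over all genes. The list mean was 8.62 to 8.67 on the Stat3Fl/FlMdr2-/- arrays, which carried the Xist pattern. In Stat3Δhc Mdr2-/- liver it was 8.51 on array A, which also carried it, and 8.47 and 8.29 on arrays B and C. The part of the Xist pattern in this shift was not tested for the list. Mars1 (-0.43, adjusted p = 0.0384) and Sars (-0.26, adjusted p = 0.0489) were the 2 that passed. With Mdr2 intact 0 of 17 passed, 1 had an unadjusted p under 0.05, and the median was -0.03. Mdr2 loss in floxed liver raised 3, Vars (0.53, adjusted p = 0.00177), Gars (0.43) and Lars (0.35), and in Stat3-deleted liver it raised Vars (0.60, adjusted p = 0.000698) and lowered Mars1 (-0.36).

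The unfolded protein response genes of the ATF6 and XBP1 branches, to which Hspa5 also responds, were highest in Stat3Fl/FlMdr2-/- liver by their list mean. With Mdr2 loss in floxed liver 21 of 24 were higher, with a median of 0.23, although only Ern1, which encodes the sensor IRE1 (0.59, adjusted p = 0.0065), rose and Sec61b (-0.32, adjusted p = 0.0162) fell. With Stat3 deletion on the knockout 21 of 24 were lower, with a median of -0.23, and 2 passed: the disulphide isomerase Pdia6 (-0.56, adjusted p = 0.0216) and the transcription factor Xbp1 (-0.42, adjusted p = 0.0216). These comparisons share the 3 Stat3Fl/FlMdr2-/- arrays, which carried the Xist pattern. The list mean was 9.60 to 9.63 on those arrays and 9.55 on array A of Stat3Δhc Mdr2-/- liver, which also carried it. It was 9.31 and 9.32 on arrays B and C of that genotype and 9.32 to 9.45 on the 6 arrays with Mdr2. The part of the Xist pattern in these means was not tested for the list. In Stat3-deleted liver, Mdr2 loss lowered 1 of 24, Sel1l (-0.35), and with Mdr2 intact Stat3 deletion changed 0 of 24 in limma, with 5 at an unadjusted p under 0.05.

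Among 21 other ATF4 or CHOP targets and partners, the numbers that passed were near the share over all genes. That share was 2.58% and 5.77% for Stat3 deletion with Mdr2 intact and on the knockout. For Mdr2 loss it was 12.8% in floxed and 17.4% in Stat3-deleted liver. Stat3 deletion changed 0 with Mdr2 intact (3 at an unadjusted p under 0.05) and lowered 1 on the knockout, Cebpg (-0.39, adjusted p = 0.0458), a dimer partner of ATF4. Mdr2 loss in floxed liver lowered Gadd45a (-0.71) and Vegfa (-0.36). In Stat3-deleted liver it raised Tnfrsf10b (0.68, adjusted p = 0.0021), a death receptor induced by CHOP, and Batf2 (0.30), and lowered Gadd45a (-0.63) and Atg5 (-0.46). Of 8 mitochondrial chaperones and proteases 0 passed in each of the 4 comparisons, with 2, 0, 1 and 3 at an unadjusted p under 0.05.

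**Figure D3:**
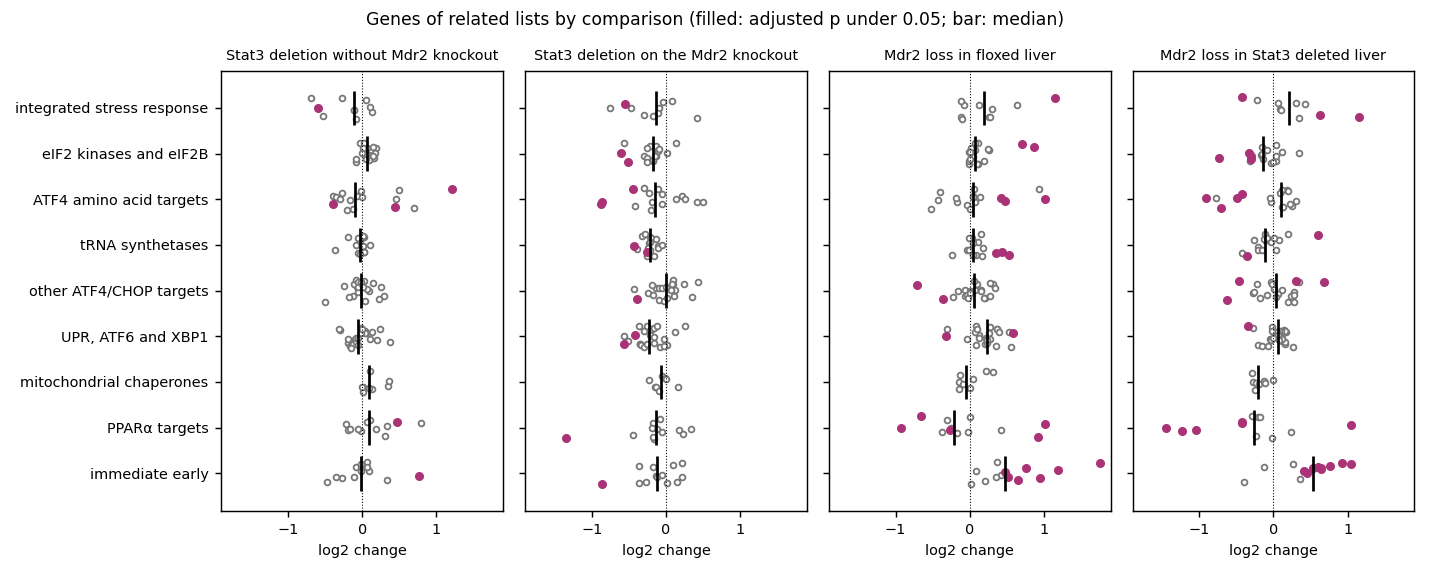
Log2 change of each gene of the 9 lists in the 4 comparisons, with one point per gene, filled where the adjusted p is under 0.05, and a bar at the median of the list. The immediate early genes are shifted to the right for Mdr2 loss in both Stat3 backgrounds, with medians of 0.48 and 0.53, while the 10 integrated stress response genes spread on both sides of 0.

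Atf3 and Fgf21 also belong to other programs, whose genes were followed beside them. Atf3 is induced with the immediate early genes, and of 13 such genes 7 rose and 0 fell with Mdr2 loss in floxed liver, where 7.12% of all genes rose and 5.65% fell, and 9 rose and 0 fell in Stat3-deleted liver, where 6.90% rose and 10.5% fell. Jun, a partner of ATF3, rose by 1.75 (adjusted p = 1.56e-05) and 0.92 (adjusted p = 0.00187), Klf6 by 1.19 and 0.76, and Myc by 0.95 and 1.05. Their mean over 13 genes was 6.65 to 6.78 on the arrays with Mdr2 and 7.07 to 7.35 on those without, and Atf3 followed the same division. Among the knockout arrays, those with the Xist pattern had immediate early means of 7.24 to 7.34 (Stat3Fl/FlMdr2-/-) and 7.35 (array A of Stat3Δhc Mdr2-/- liver). Arrays B and C of Stat3Δhc Mdr2-/- liver, without that pattern, had 7.07 and 7.08. The part of the Xist pattern in these means, and in the Jun change that follows, was not tested. Stat3 deletion on the knockout lowered Jun (-0.86, adjusted p = 0.00903), whereas Atf3 stood at -0.11 there. With Mdr2 intact Stat3 deletion raised Dusp1 (0.77, adjusted p = 0.0184), where Atf3 was also at -0.11. With Mdr2 loss in Stat3-deleted liver 11 of the 13 were higher and 2 lower. Dusp1 was 1 of the lower genes (-0.40, adjusted p = 0.0839). Fgf21 is also a target of PPARα, the fatty acid receptor, and of 12 genes of that program 2 rose and 3 fell with Mdr2 loss in floxed liver (7.12% and 5.65% of all genes). Those that rose were Angptl4 (0.92, adjusted p = 0.00818) and Vnn1 (1.01, adjusted p = 0.0226), while Cyp4a14 (-0.93, adjusted p = 0.0215) and Slc25a20 (-0.27, adjusted p = 0.0259) fell. In Stat3-deleted liver 1 rose and 5 fell (6.90% and 10.5% of all genes). With Stat3 deletion on the knockout 0 rose and 1 fell (1.87% and 3.90% of all genes). That was Vnn1 (-1.35, adjusted p = 0.0117), where Fgf21 was at -0.75 and did not pass. Ehhadh went the other way there (0.34, adjusted p = 0.0764). With Mdr2 intact 1 rose and 0 fell (1.51% and 1.07% of all genes). That was Ehhadh (0.47, adjusted p = 0.0445), where Fgf21 was at -0.53 and did not pass.

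**Figure D4:**
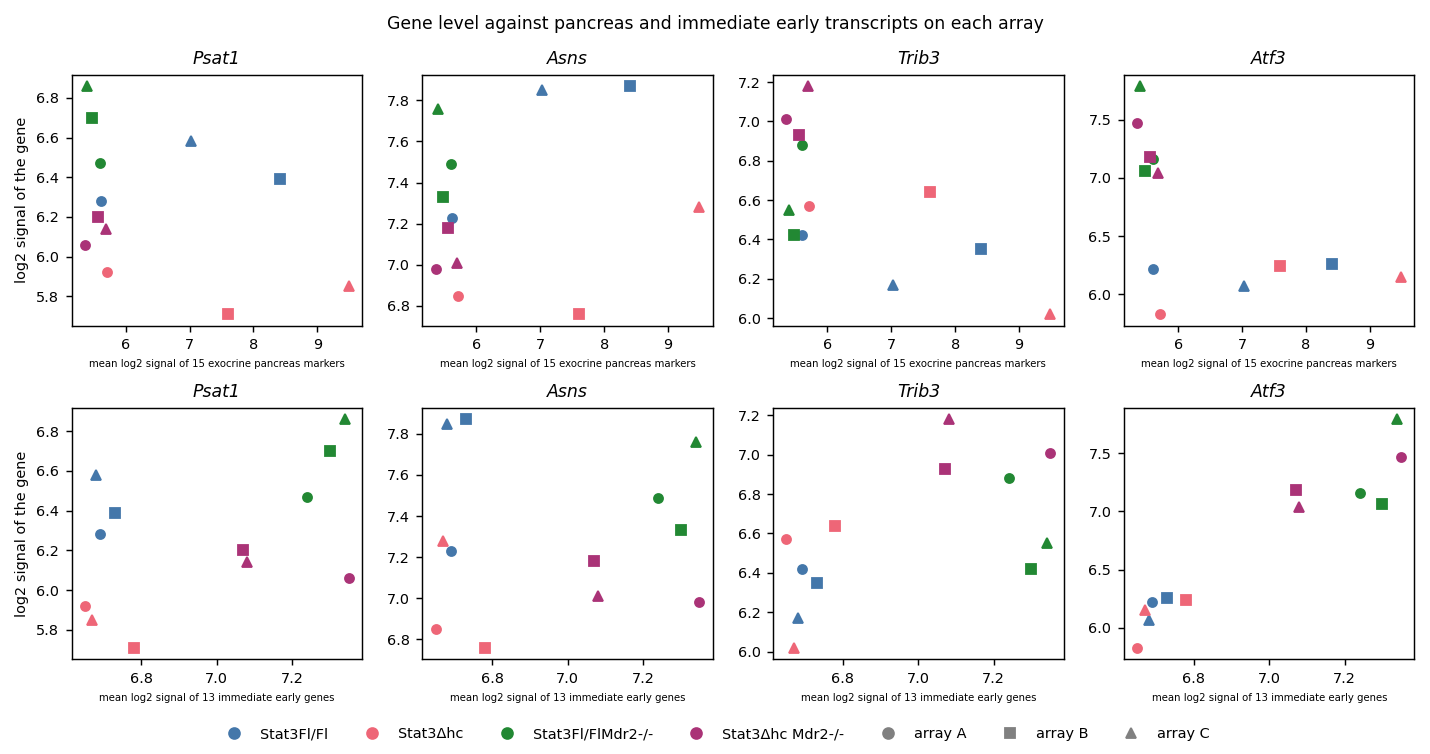
Log2 signal of Psat1, Asns, Trib3 and Atf3 on each of the 12 arrays against the mean log2 signal of 15 exocrine pancreas markers (top) and of 13 immediate early genes (bottom), coloured by genotype with one symbol per array letter. Psat1 is lower in Stat3-deleted than in floxed liver among the arrays with pancreas means under 6, and Atf3 is high on the 6 arrays whose immediate early mean is above 7.

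The transcripts most like the 4 genes that passed, by Pearson correlation of log2 signal over the 12 arrays, were as follows. These arrays fall into genotypes, so a high r largely repeats a shared difference between genotypes, and no test is attached. Psat1 was most like Slc41a2 (r = 0.973), Ubap2 (0.950) and Racgap1 (0.950). Atf3 was most like Elovl7 (0.974), Timp1 (0.968) and Tnfrsf12a (0.968). Trib3 was most like Mir185 (0.976), Il17rc (0.962) and Ttll10 (0.920), and Atf5 was most like Dchs1 (0.946), Dhrs3 (0.922) and Trub2 (0.890). None of these 12 neighbours is among the 10 genes. Within the 10, the highest correlations over the 12 arrays were 0.78 for Asns with Psat1, 0.70 for Chac1 with Fgf21 and 0.68 for Hspa5 with Psat1. The lowest were -0.71 for Atf3 with Atf5, -0.67 for Atf4 with Trib3 and -0.65 for Atf3 with Atf4.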

How the data were processed

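The log2 values of 12 Affymetrix mouse Gene 1.0 ST arrays are those deposited by the authors, who normalised them with RMA (per the submitters' processing notes, version not given in the sources used here). Values ran from 1.37 to 14.54 and array medians from 6.01 to 6.14. Arrays of a genotype correlated at 0.98 to 0.991. Precision is limited by having 3 arrays for each genotype. The values come without detection calls, and probe positions were not used here. Samples were grouped by title.

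The platform annotation pairs 21789 of 35556 transcript clusters with 1 gene, 1621 with several genes and 12146 with no gene. Each of 19938 genes was taken by its cluster of highest mean. The filter, a value over the 40th percentile of its array on 3 or more arrays, kept 13977 genes and all 10 described here. Changes were tested with limma 3.58.1 in R 4.3.3 (lmFit and eBayes on all 12 arrays, two-sided, Benjamini-Hochberg at 0.05), and the code was checked on simulated data. The median standard error was 0.11 (0.155 for the difference of effects).

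The genes, lists and covariates were chosen with earlier results of these data known. Named were the 10 genes, Stat3 and Abcb4, up to 4 passing genes of smallest adjusted p per list and comparison, and the 3 tested genes most correlated with each of the 10 that passed. The planned rule printed promoters of passing genes with a match (Atf3 and Trib3), and the other 4 matches were added for comparison. List genes without a cluster naming 1 gene were not analysed here. Marker lists of macrophages, bile duct, stellate, endothelial, red and lymphoid cells were also followed.

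The alternatives were testing every gene, filtering at the 60th percentile, averaging the clusters of each gene, cyclic loess, trend and robust eBayes, the letter as a replicate block, an Xist or a pancreas covariate, the compared groups alone, and leaving out each array. Same-letter arrays of different genotypes had deviations correlated at -0.41 to 0.37 (3 of 18 pairs over 0.1), so the letters were not taken to pair arrays. Figures were drawn with matplotlib 3.10.9.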

Additional observations from a re-analysis of the deposited data

How the results depend on the processing

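With 10 genes, 5 comparisons and up to 21 alternatives, 966 values kept direction and side of the threshold, 21 lost it, 9 gained it and 34 turned direction. Atf3 passed for Mdr2 loss in Stat3-deleted liver under all of them and in floxed liver under all but the Xist covariate. Of the integrated stress response genes, those that passed with Stat3 deletion and intact Mdr2 went from 1 to 2 with trend and robust eBayes and with the pancreas covariate, and to 0 to 2 on leaving out 1 array. On the knockout they went from 1 to 0 with the 60th percentile filter (which removes Psat1), the Xist covariate or the compared groups only, and to 0 to 2 on leaving out 1 array. For Mdr2 loss in floxed liver they went from 1 to 0 with the Xist covariate and to 1 to 2 on leaving out 1 array. In Stat3-deleted liver they went from 3 to 1 with the pancreas covariate, to 2 with cyclic loess or the replicate block, and to 1 to 3 on leaving out 1 array. There the Xist covariate left the count at 3 but lost Atf5 (adjusted p = 0.0607) and gained Atf4 (-0.27, adjusted p = 0.0478). In that comparison the Xist covariate is the same fit as leaving out array A of Stat3Δhc Mdr2-/- liver, and not a separate result. For the difference of the effects they stayed at 0. The cause was not tested, except where a filter removed a gene.

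The replicate block, although the letters did not pair the arrays, ended the call of Atf5 (adjusted p = 0.0522) and no other: Psat1 had adjusted p = 0.0227 and 0.0222, Atf3 0.00427 and 0.00372, and Trib3 0.0231. It took the count over all genes from 361 to 237 and from 806 to 473 in the Stat3 comparisons and from 10 to 3 for the difference. The Xist covariate took the counts over all genes for Stat3 deletion on the knockout from 806 to 37 and for Mdr2 loss in floxed liver from 1785 to 102. The pancreas covariate took the counts for Mdr2 loss from 1785 to 1055 and from 2431 to 857. The compared groups alone took all genes from 806 to 230 and from 2431 to 1541.

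The changes that turned direction had not passed. With cyclic loess, Atf4 for Stat3 deletion on the knockout was 0.00 and Psat1 for the difference -0.02. With the Xist covariate, Atf3 and Atf4 for Stat3 deletion on the knockout were 0.13 and 0.02, Hspa5 for Mdr2 loss was -0.13 in floxed and -0.04 in Stat3-deleted liver, Ddit3 for the latter -0.08, and Hspa5 and Psat1 for the difference 0.09 and -0.03. With the pancreas covariate, Atf5, Asns and Chac1 for Mdr2 loss in floxed liver were 0.01, 0.11 and -0.01. On leaving out 1 array, the ranges that crossed 0 were, for Stat3 deletion with Mdr2, Atf3 -0.20 to 0.01 and Trib3 -0.02 to 0.29. On the knockout they were Chac1 -0.18 to 0.04, Atf3 -0.25 to 0.12 and Ddit3 -0.06 to 0.16. For Mdr2 loss they were Ddit3 -0.18 to 0.03 in floxed liver, and Asns -0.01 to 0.25, Ddit3 -0.08 to 0.14 and Hspa5 -0.04 to 0.17 in Stat3-deleted liver. For the difference they were Atf3 -0.13 to 0.23, Psat1 -0.06 to 0.14 and Fgf21 -0.50 to 0.19. Psat1 and Fgf21 were above the 60th percentile of the array on 2 and 1 of 12 arrays.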
